A study of Homo sapiens with 6 samples.

Results

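The genes described here encode the nuclear subunits and assembly factors of complex III, complex IV and ATP synthase of the mitochondrial respiratory chain. They were taken by name from the protein-coding rows of the expression table as all genes whose symbols start with UQCR, UQCC, ATP5 or COX and a digit, together with CYC1, SURF1, SCO1, SCO2, ATPAF1 and ATPAF2, without the genes of the mitochondrial chromosome. This gave 66 gene identifiers (65 symbols, since SCO2 has 2 identifiers) of the 58735 in the table. Expression was measured by RNA sequencing of MM.1S, an established human multiple myeloma cell line, in 3 control libraries transfected with a negative control siRNA (si-NC) and 3 PRMT1 knockdown libraries (PRMT1 KD) transfected with an siRNA against PRMT1, an arginine methyltransferase. Per the study's methods, siRNA was used at 100 nM, and cells were collected after 72 h. The study's methods speak of "dependent" biological replicates for its experiments in general, and the labels do not say whether these libraries came from separate cultures. The p-values therefore measure only the spread between these libraries, part of which may be technical. The siRNA used against PRMT1 is not named, so an effect of PRMT1 loss and an effect of that siRNA on other transcripts cannot be told apart.

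Complex III (cytochrome bc1 complex) passes electrons from ubiquinol to cytochrome c, and complex IV (cytochrome c oxidase) passes them on to oxygen. Both pump protons across the inner mitochondrial membrane, and ATP synthase uses the returning protons to turn a ring of c subunits and make ATP. Each complex mixes subunits encoded in the nucleus with a few encoded in mitochondrial DNA, and needs assembly factors that insert heme and copper or hold subunits until they are joined. Plasma cells, the cells from which myeloma arises, secrete large amounts of immunoglobulin and rely on mitochondrial respiration.

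Reads on genes came to between 14439217 and 16465026 per library. PRMT1 fell in PRMT1 KD. It stood at 61.7, 62.8 and 59.0 FPKM (fragments per kilobase of gene, scaled to library size) in the control libraries and at 13.3, 14.0 and 12.5 FPKM in the PRMT1 KD libraries, 21.7% of the control mean (log2 fold change -2.12 ± 0.06 (SE), adjusted p = 2.77e-05, limma). Of 10 plasma cell markers, 9 had a mean of at least 1 FPKM, and their summed level, most of it from JCHAIN, XBP1 and TNFRSF17, was 1329 to 1409 FPKM in control and 1314 to 1487 FPKM in PRMT1 KD. The markers did not move together. SLAMF7, a surface receptor of plasma cells, was called lower, at 37.8, 39.0 and 37.1 FPKM in control and at 23.4, 22.9 and 25.1 FPKM in PRMT1 KD (log2 fold change -0.65 ± 0.05, adjusted p = 0.00515, limma). The transcription factors PRDM1 and XBP1 were also lower without overlap (-0.18 ± 0.06 and -0.13 ± 0.04), and CD38 and MZB1 were higher without overlap (0.24 ± 0.09 and 0.11 ± 0.05), none of these 4 being called. The part of these markers in the results below was not tested. MAF, which a translocation is known to switch on in MM.1S, was listed at 0 in all 6 libraries. Its known target ITGB7, looked at after the value of MAF was seen, had at most 7 reads in any library, and CCND1, looked at likewise, had a control mean of 112 FPKM. CCND2 was at a mean of 13.3 FPKM over all libraries, and IGHA1 and IGLC2, the heavy and light chain genes of the IgA lambda myeloma that MM.1S is known to come from, were at 526 and 1306 FPKM. The libraries are called MM.1S here because the labels say so, and the identity of the line was not tested. Of 7 markers of other cell types, only CD3E, a T cell receptor chain, exceeded 1 FPKM (33.4 ± 1.89 in control and 38.1 ± 1.40 in PRMT1 KD (SD, n = 3)).

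Across the 54 members tested, those with a mean of at least 1 FPKM over the 6 libraries, PRMT1 KD was mostly a little below control. The fitted log2 fold change was below 0 for 47 of the 54 (87.0%), against 47.4% of all 13585 genes tested, and the members' median was -0.09, against 0.01 over all genes. In 24 members (44.4%) all 3 PRMT1 KD libraries lay below all 3 control libraries, which held for 12.3% of all genes, and in 3 members all lay above, which held for 13.6% of all genes. An adjusted p under 0.05 was reached by 4 members, all lower in PRMT1 KD, when 0.986% of all genes tested were called lower. ATP5MC1, COX6A1, ATP5IF1 and COX14 were those 4. No member was called higher, when 1.07% of all genes were. At an unadjusted p under 0.05, 20 members were lower and 3 higher, against 9.47% and 10.1% of all genes. The members also had a higher median level than all genes tested (41.3 against 6.31 FPKM). Their median depth was 11117.5 reads over the 6 libraries, against 2716. The part of level and depth in these shares was not tested. A bulk library cannot tell less RNA per cell from fewer cells of a kind. Of all genes, 134 were called lower and 145 higher, a split that became 133 and 222 with values rescaled to TPM and 145 and 90 with the medians of the libraries set equal. The members called were 3 and 4 under these scalings, with none higher.

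**Figure D1:**
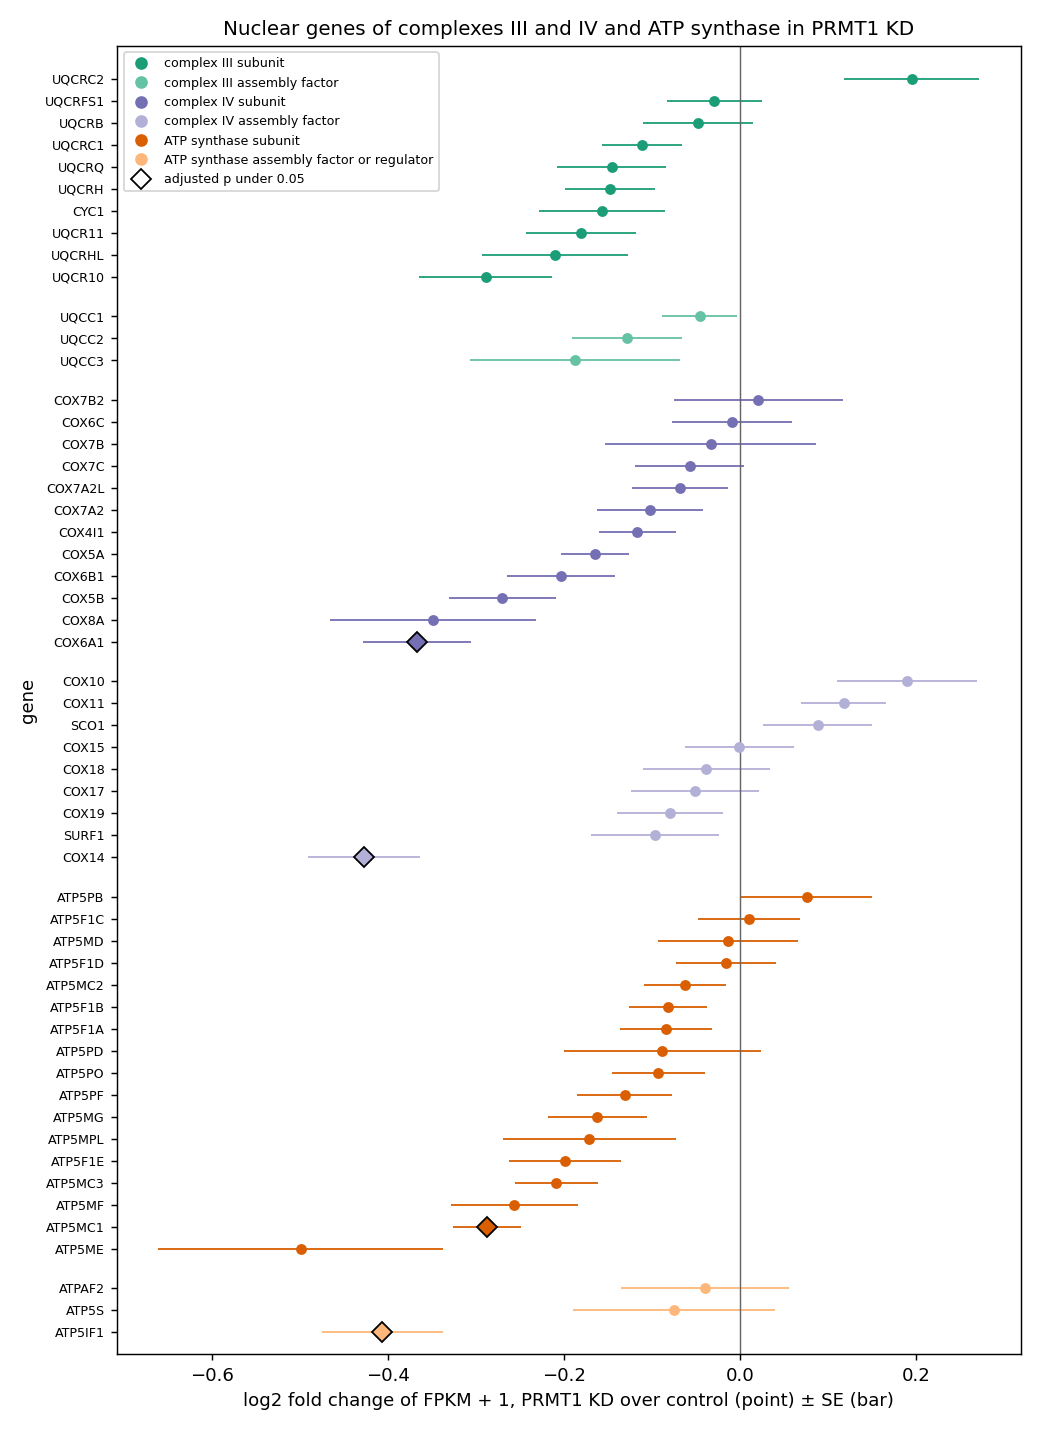
Log2 fold change of FPKM + 1 (x axis, PRMT1 KD over control, bars ± SE) for each of the 54 genes tested (y axis), coloured by complex and role, with diamonds for an adjusted p under 0.05. Points left of the line at 0 are the 47 genes with a lower fitted level in PRMT1 KD, and the 4 diamonds are ATP5MC1, COX6A1, ATP5IF1 and COX14.

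The 4 called members each stood lower in every PRMT1 KD library than in any control library. ATP5MC1 encodes the c subunit of the ATP synthase rotor (hg38, chr17:48892765-48895871, plus strand). It stood at 86.7, 86.0 and 83.6 FPKM in control and at 68.6, 70.1 and 70.8 FPKM in PRMT1 KD. The PRMT1 KD mean was 81.8% of the control mean (log2 fold change -0.29 ± 0.04, adjusted p = 0.0287, limma), and libraries within each group differed by far less than the groups. COX6A1 encodes the common isoform of subunit 6A of complex IV (hg38, chr12:120438090-120440742, plus strand). It stood at 86.1, 81.6 and 76.6 FPKM in control and at 65.1, 64.8 and 58.9 FPKM in PRMT1 KD. This came to 77.3% of the control mean (log2 fold change -0.37 ± 0.06, adjusted p = 0.0425, limma), with control replicate 3 and PRMT1 KD replicate 3 the lowest of their groups.

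ATP5IF1 encodes the inhibitor that binds ATP synthase and stops it from hydrolysing ATP when respiration fails (hg38, chr1:28236109-28246906, plus strand). It stood at 68.2, 68.1 and 62.5 FPKM in control and at 54.6, 47.5 and 47.4 FPKM in PRMT1 KD. The PRMT1 KD mean was 75.2% of the control mean (log2 fold change -0.41 ± 0.07, adjusted p = 0.0433, limma). COX14 encodes an assembly factor that holds newly made COX1, the mitochondrially encoded catalytic subunit of complex IV (hg38, chr12:50111979-50120457, plus strand). It stood at 18.5, 16.5 and 16.6 FPKM in control and at 13.15, 11.98 and 12.48 FPKM in PRMT1 KD, 72.8% of the control mean (log2 fold change -0.43 ± 0.06, adjusted p = 0.0327, limma). Of the 50-base words in COX6A1 transcripts, 44.0% also occur in other genes, COX6A1P2 and AL021546.1, and pseudogenes of COX6A1 held 7.17% as many reads as COX6A1 itself. The shares were 4.81% for COX14, 1.43% for ATP5MC1 and 0% for ATP5IF1. The exact permutation test gave 0.1 for each of the 4, the smallest two-sided p that 3 libraries against 3 allow. With any single library left out, COX6A1, ATP5IF1 and COX14 were no longer under 0.05 (adjusted p from 0.0594 to 0.171, from 0.053 to 0.173 and from 0.0655 to 0.139, limma), and ATP5MC1 stayed under it only without control replicate 3 (0.0497, and up to 0.146 without the others).

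**Figure D2:**
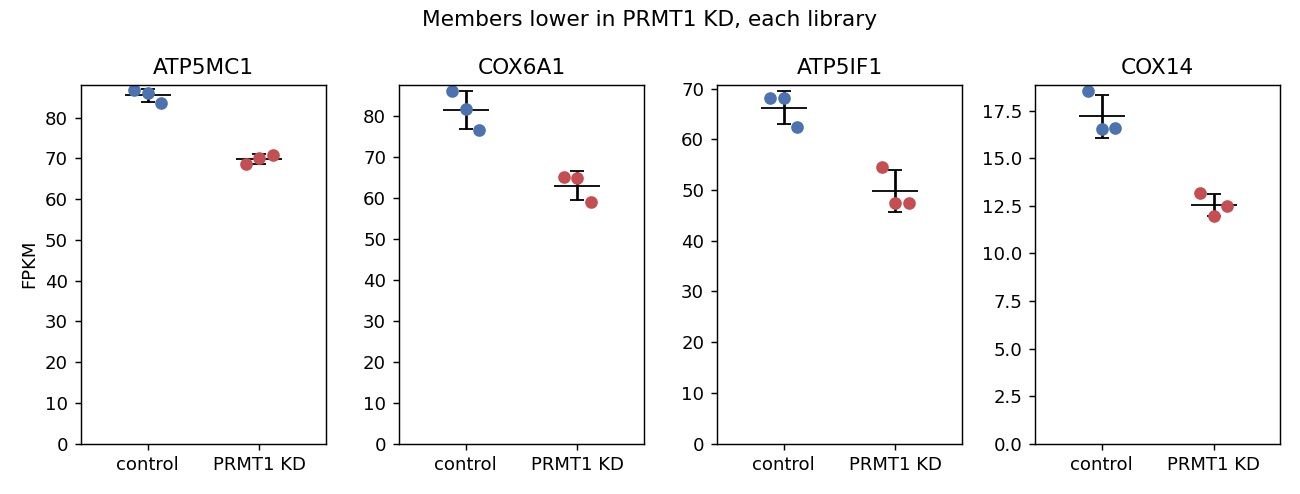
FPKM (y axis, from 0) of the 4 members called lower, 1 point per library in control and PRMT1 KD, with the mean (line) and SD (bars, n = 3). In each panel every PRMT1 KD library lies below every control library, by the widest margin relative to its spread for ATP5MC1.

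Of the 4 called members, 3 have the sequence before their starts shown here, and its part in their levels was not tested. It was taken from the promoter table of RefSeq (GRCh38.p14). Each window of that table has 300 bases and runs into the gene, and the stretches were ended at the base before the gene's start in GENCODE 29, which left 228 bases for ATP5MC1, 227 for COX6A1 and 235 for ATP5IF1. Capitals mark letters found by searching both strands for cores of factors known to act at respiratory genes: GCGCANGC (NRF1), CGGAAG (ETS family, which includes GABP) and ATGGCG (YY1), and for the common CCAAT box. Matches in these stretches did not overlap one another.
ATP5MC1: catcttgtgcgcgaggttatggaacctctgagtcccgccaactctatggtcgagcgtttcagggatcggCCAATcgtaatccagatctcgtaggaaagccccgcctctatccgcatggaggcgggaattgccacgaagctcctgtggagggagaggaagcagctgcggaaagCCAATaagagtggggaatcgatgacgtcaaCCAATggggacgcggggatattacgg
COX6A1: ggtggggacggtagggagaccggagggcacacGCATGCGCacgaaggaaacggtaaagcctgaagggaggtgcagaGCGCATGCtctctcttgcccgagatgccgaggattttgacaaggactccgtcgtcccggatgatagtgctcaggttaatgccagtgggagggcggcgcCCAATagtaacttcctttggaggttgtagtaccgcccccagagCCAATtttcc
ATP5IF1: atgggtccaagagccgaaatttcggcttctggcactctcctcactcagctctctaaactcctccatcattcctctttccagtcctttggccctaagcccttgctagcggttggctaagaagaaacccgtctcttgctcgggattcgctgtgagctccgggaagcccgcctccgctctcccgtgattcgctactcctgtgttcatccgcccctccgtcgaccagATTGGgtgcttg
ATP5MC1 (chr17:48892537-48892764) had 3 matches to CCAAT, COX6A1 (chr12:120437863-120438089) had 2 to CCAAT and 2 to GCGCANGC, and ATP5IF1 (chr1:28235874-28236108) had 1 to CCAAT in the stretch shown. Over the whole window of 300 bases, COX6A1 also had 2 matches to CGGAAG and 1 to ATGGCG, ATP5MC1 had 4 to CCAAT, and ATP5IF1 had no more. The window of COX14, not printed because too little of it lies before the gene's start in GENCODE 29, had 1 match to GCGCANGC and 1 to CCAAT. Whole windows were matched by gene symbol, looked up from the identifier, for 49 of the 66 members, with 62 windows in all, since some genes have several starts. GCGCANGC was in 37.1% of these windows and in 11.98% of all 35116 windows. CGGAAG was in 48.4% against 19.5%, ATGGCG in 25.8% against 10.7%, and CCAAT in 38.7% against 34.6%. The comparison was with every window of that table, whether or not its gene was expressed here. Whole windows run into the gene, so a match may lie past its start. The difference between these shares was not tested. A match describes the letters only.

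Among the 10 complex III subunits, 9 (90%) had a fitted log2 fold change below 0 (median -0.15), against 47.4% of all genes tested. None of the 10 was called, when 0.986% of all genes were called lower. Summed over the subunits tested, the level was 875 ± 33.3 FPKM in control and 799 ± 17.7 FPKM in PRMT1 KD (SD, n = 3), 91.3% of control. CYC1, the heme-bearing cytochrome c1, was the highest of them. It stood at 268, 269 and 238 FPKM in control and at 243, 239.7 and 213 FPKM in PRMT1 KD, with the groups overlapping (adjusted p = 0.287, limma). UQCRFS1, the Rieske iron-sulfur protein, differed least (log2 fold change -0.03 ± 0.05), at 35.1, 33.5 and 33.4 FPKM in control and 32.0, 32.5 and 35.5 FPKM in PRMT1 KD. UQCR10, a small subunit of the membrane part, had the lowest fold change of the complex. It stood at 81.1, 86.4 and 72.4 FPKM in control and at 61.6, 69.4 and 64.6 FPKM in PRMT1 KD, without overlap (log2 fold change -0.29 ± 0.08, adjusted p = 0.106, limma).

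The core proteins of complex III differed in direction. UQCRC2, core protein 2, had the highest fold change of all members tested. It stood at 42.6, 42.5 and 42.4 FPKM in control and at 43.8, 48.6 and 54.6 FPKM in PRMT1 KD (log2 fold change 0.20 ± 0.08, adjusted p = 0.225, limma). The control libraries were almost equal, and the PRMT1 KD libraries spread widely above them. UQCRC1, core protein 1, had a log2 fold change of -0.11 ± 0.05 (adjusted p = 0.244, limma). UQCRH, the hinge protein that helps cytochrome c dock, stood at 215, 213 and 213 FPKM in control and at 181, 196 and 203 FPKM in PRMT1 KD. Its copy UQCRHL was at 5.21, 5.06 and 4.55 FPKM in control and at 3.69, 4.30 and 4.43 FPKM in PRMT1 KD. Of all 50-base words in UQCRH transcripts, 29.4% also occur in UQCRHL, so reads may be split between these genes.

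The 3 complex III assembly factors were all fitted below 0, against 47.4% of all genes tested, with none called. UQCC1, the highest of them, which supports the synthesis of cytochrome b, stood at 24.4, 25.2 and 25.4 FPKM in control and at 24.8, 23.8 and 24.0 FPKM in PRMT1 KD. UQCC3 had their lowest log2 fold change (-0.19 ± 0.12, adjusted p = 0.442, limma), with 5.34, 5.43 and 4.44 FPKM in control and 5.13, 4.32 and 3.61 FPKM in PRMT1 KD. The groups overlapped in both genes, and 29.2% of the exon bases of UQCC3 overlap LBHD1 on the opposite strand, where reads counted without strand could be shared.

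Of the 12 complex IV subunits tested, 11 (91.7%) were fitted below 0 (median -0.11), against 47.4% of all genes tested. COX6A1 was called, when 0.986% of all genes were called lower. The summed level of these subunits was 1497 ± 55.7 FPKM in control and 1328 ± 23.6 FPKM in PRMT1 KD (SD, n = 3), 88.7% of control. COX8A, a small membrane subunit, was the highest and had the second lowest log2 fold change of the subunits. It stood at 387, 350.4 and 314 FPKM in control and at 304, 291 and 232 FPKM in PRMT1 KD (log2 fold change -0.35 ± 0.12, adjusted p = 0.166, limma). The groups were separate, but the libraries of each group spread so widely that the lowest control was close to the highest PRMT1 KD library, and 34.5% of the exon bases of COX8A are shared with AP000721.1 on the same strand. COX5B and COX5A, both on the matrix side of the complex, had log2 fold changes of -0.27 ± 0.06 (adjusted p = 0.0788) and -0.16 ± 0.04 (adjusted p = 0.0853) in limma, both without overlap between groups.

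Tissue isoforms of complex IV were nearly absent, with 1 exception. COX4I2, the lung isoform of subunit 4, had no read in any library, which allows at most 3 reads per library, while COX4I1 was at 79.0, 79.2 and 74.9 FPKM in control and at 69.5, 73.5 and 71.8 FPKM in PRMT1 KD. COX7A1 (heart and muscle) had 1 to 4 reads per library, COX8C (testis) 0 to 5 and COX6B2 (testis) 3 to 7. COX6B1, the common form, stood at 132, 143 and 126 FPKM in control and at 110.4, 122 and 115 FPKM in PRMT1 KD (log2 fold change -0.20 ± 0.06, adjusted p = 0.135, limma). COX6A2 (heart and muscle) had 1 read in each control library and 5, 3 and 3 in the PRMT1 KD libraries, too few for a fold change, when its partner COX6A1 had 1205 to 1916.

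COX7B2, the testis isoform of subunit 7B, was the exception. It stood at 28.9, 26.8 and 23.8 FPKM in control and at 24.0, 27.0 and 29.7 FPKM in PRMT1 KD. The common form COX7B was at 44.4, 46.5 and 49.6 FPKM in control and at 37.6, 47.9 and 53.0 FPKM in PRMT1 KD. COX7B2 thus made up 36.1% ± 3.53 of their summed FPKM in control and 37.0% ± 1.72 in PRMT1 KD (SD, n = 3, exact permutation p = 0.9). No 50-base word of its transcripts occurs in another gene's. Subunit 7A came from COX7A2, at 70.8, 75.8 and 71.8 FPKM in control and 64.5, 65.8 and 73.3 FPKM in PRMT1 KD. COX7A2L, a related protein that joins complexes III and IV in supercomplexes, was at 24.5, 23.2 and 23.5 FPKM in control and 21.4, 22.6 and 23.9 FPKM in PRMT1 KD, and the groups overlapped in both genes.

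Among the 9 complex IV assembly factors tested, 6 (66.7%) were fitted below 0 and 3 above (median -0.04), when 47.4% of all genes were below 0. COX14 was called lower, when 0.986% of all genes were. The 3 fitted above 0 were COX10, COX11 and SCO1. COX10, which makes heme O on the way to heme A, stood at 19.3, 19.1 and 15.8 FPKM in control and at 19.99, 21.09 and 20.97 FPKM in PRMT1 KD (log2 fold change 0.19 ± 0.08, adjusted p = 0.249, limma). COX11, which delivers copper to COX1, had 0.12 ± 0.05 (adjusted p = 0.241) and SCO1, which delivers copper to COX2, 0.09 ± 0.06 (adjusted p = 0.481). PRMT1 KD libraries lay above all control libraries for COX10 and COX11 and overlapped them for SCO1. Of the 9 factors, 2 thus lay above control without overlap and 2 lay below, against 13.6% and 12.3% of all genes. COX15, the next enzyme of heme A synthesis, had equal group means (10.9 ± 0.484 FPKM in control and 10.9 ± 0.65 FPKM in PRMT1 KD (SD, n = 3)). COX19, which acts with copper, was at 6.10, 6.72 and 6.06 FPKM in control and at 6.02, 5.82 and 5.86 FPKM in PRMT1 KD, just below control without overlap (log2 fold change -0.08 ± 0.06, adjusted p = 0.511, limma). COX17, the copper chaperone of the space between the membranes and the highest by mean level, was at 20.9, 21.8 and 19.8 FPKM in control and 18.1, 21.0 and 21.3 FPKM in PRMT1 KD. SURF1, whose loss causes Leigh syndrome, had a log2 fold change of -0.10 ± 0.07 (adjusted p = 0.509, limma).

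ATP synthase had 17 subunit genes tested, of which 15 (88.2%) were fitted below 0 (median -0.09), against 47.4% of all genes tested. ATP5MC1 was called, when 0.986% of all genes were called lower. The summed level of these subunits was 1627 ± 48.6 FPKM in control and 1530.5 ± 50.8 FPKM in PRMT1 KD (SD, n = 3), 94.0% of control. Without both libraries numbered 3, an alternative chosen after seeing the data, the median log2 fold change was -0.18. The alpha, beta, gamma, delta and epsilon subunits varied, with gamma and delta near 0 and epsilon the lowest. ATP5F1B, the catalytic beta subunit and the highest of all members, stood at 788, 785 and 743 FPKM in control and at 709, 740.2 and 739 FPKM in PRMT1 KD (log2 fold change -0.08 ± 0.04, adjusted p = 0.367, limma), all PRMT1 KD libraries below control by a small margin. ATP5F1A, the alpha subunit, was at 77.3, 77.1 and 73.3 FPKM in control and at 67.5, 72.1 and 75.2 FPKM in PRMT1 KD (log2 fold change -0.08 ± 0.05). ATP5F1C (gamma) and ATP5F1D (delta) had log2 fold changes of 0.01 ± 0.06 and -0.02 ± 0.06, and ATP5F1E (epsilon) had -0.20 ± 0.06 (adjusted p = 0.154, limma).

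In the peripheral stalk, ATP5PB (subunit b) had the highest fold change of the complex, at 65.1, 63.6 and 65.6 FPKM in control and 62.1, 67.2 and 76.3 FPKM in PRMT1 KD (log2 fold change 0.08 ± 0.07, adjusted p = 0.617, limma). ATP5PO (OSCP) had -0.09 ± 0.05, ATP5PF (F6) had -0.13 ± 0.05 and ATP5PD (d) had -0.09 ± 0.11 on the log2 scale. Of the small subunits around the membrane part, ATP5ME (e) had the lowest fold change of all members. It stood at 8.54, 9.50 and 6.89 FPKM in control and at 6.38, 4.21 and 6.29 FPKM in PRMT1 KD (log2 fold change -0.50 ± 0.16, adjusted p = 0.156, limma). It rests on 630 reads over 6 libraries, the fewest of any member tested, and 61.6% of its exon bases overlap MYL5 on the opposite strand. ATP5MF (f) and ATP5MG (g) had -0.26 ± 0.07 and -0.16 ± 0.06, without overlap between groups.

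The c subunit is encoded by 3 genes whose products differ in the targeting sequence that is cut off on import. Their last 77 codons encode the same residues, and the last 60 coding bases before the stop codon are shown in capitals where at least 1 gene differs from the others (GENCODE 29 transcripts).
ATP5MC1: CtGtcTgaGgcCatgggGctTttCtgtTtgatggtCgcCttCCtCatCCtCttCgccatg
ATP5MC2: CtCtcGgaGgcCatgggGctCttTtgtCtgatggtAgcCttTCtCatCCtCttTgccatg
ATP5MC3: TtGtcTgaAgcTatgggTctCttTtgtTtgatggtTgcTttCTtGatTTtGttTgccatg
Over these 231 bases ATP5MC1 and ATP5MC2 were identical at 88.3%, with no identical run longer than 17 bases, and each of them was identical to ATP5MC3 at 80.1%. No 50-base word of ATP5MC1 transcripts occurs in ATP5MC2 or ATP5MC3. ATP5MC2 stood at 69.2, 68.2 and 64.9 FPKM in control and at 61.9, 66.3 and 65.5 FPKM in PRMT1 KD (log2 fold change -0.06 ± 0.05, adjusted p = 0.509, limma). ATP5MC3 was at 45.6, 46.7 and 43.1 FPKM in control and at 40.0, 38.7 and 38.0 FPKM in PRMT1 KD (log2 fold change -0.21 ± 0.05, adjusted p = 0.0794, limma). The groups overlapped for ATP5MC2 and not for ATP5MC3.

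Summed over the 3 genes, c subunit mRNA stood at 201.5, 200.9 and 191.7 FPKM in control and at 170.6, 175.1 and 174.3 FPKM in PRMT1 KD, 87.5% of control. The share of ATP5MC1 in this sum was 43.2% ± 0.416 in control and 40.3% ± 0.309 in PRMT1 KD (SD, n = 3, exact permutation p = 0.1). That of ATP5MC2 was 34.1% ± 0.255 in control and 37.2% ± 0.819 in PRMT1 KD (exact permutation p = 0.1), and that of ATP5MC3 was 22.8% ± 0.391 and 22.5% ± 0.889 (exact permutation p = 0.6). The value of 0.1 is the smallest that this design allows. The 3 shares are parts of the same sum, so a fall in that of ATP5MC1 raises the others. They also come from the values by which ATP5MC1 was called, and so are no separate evidence. These shares are of FPKM, which divides by the length of all exons of a gene, and so depend on how many exons each gene is listed with.

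**Figure D3:**
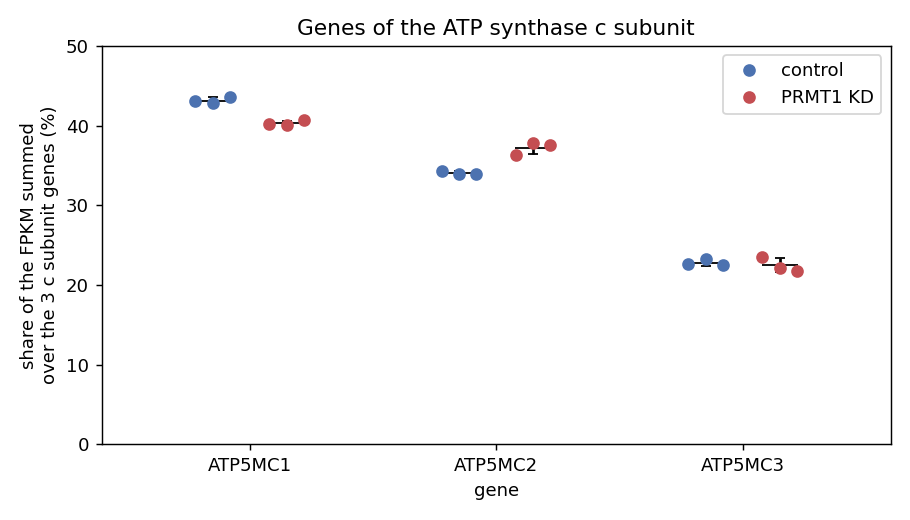
Share of each c subunit gene (x axis) in the FPKM summed over ATP5MC1, ATP5MC2 and ATP5MC3 (y axis, %), 1 point per library, with the mean and SD (n = 3) in black. The share of ATP5MC1 is 42.8% or more in control and 40.6% or less in PRMT1 KD, the share of ATP5MC2 is the other way round, and that of ATP5MC3 overlaps.

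Of the assembly factors and regulators of ATP synthase, ATP5IF1 was called lower, and ATPAF2, which helps the alpha subunit into the head, was at 4.44, 3.47 and 4.29 FPKM in control and at 4.21, 3.86 and 3.67 FPKM in PRMT1 KD. ATP5S (factor B) had a log2 fold change of -0.07 ± 0.12. ATPAF1, which does for the beta subunit what ATPAF2 does for alpha, did not reach 1 FPKM on average. It had 0.791 ± 0.0417 FPKM in control and 0.919 ± 0.0870 FPKM in PRMT1 KD (SD, n = 3), above all control libraries in each. The other members not tested were COX16, COX20, both SCO2 identifiers, ATP5MGL, the readthrough gene ATP5MF-PTCD1 and the 5 tissue isoforms of complex IV given above, and none of the 12 had more than 461 reads over all libraries. COX20 shares 72% of its exon bases with HNRNPU on the opposite strand and the SCO2 identifiers share most of theirs with each other, and the effect of this on their low values was not tested.

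Subunits were compared with assembly factors and regulators by counts and medians, and the difference was not tested. Of the 39 subunit genes tested, 35 were fitted below 0, 20 had all PRMT1 KD libraries below control (51.3%), and their median log2 fold change was -0.12. Of the 15 assembly factors and regulators, 12 were fitted below 0, 4 had all PRMT1 KD libraries below control (26.7%), and the median was -0.05. The factors differed by complex, with medians of -0.13 for complex III (3 genes), -0.04 for complex IV (9 genes) and -0.07 for ATP synthase (3 genes). Summed FPKM in PRMT1 KD was 89.8% of control for the factors and regulators and 91.4% for the subunits. The mean sum of the former was 220.9 FPKM in control and 198.4 FPKM in PRMT1 KD. Of this, 66.25 and 49.81 FPKM came from ATP5IF1, an inhibitor rather than an assembly factor. The sum was 94.0% of control for the complex III assembly factors and 96.8% for those of complex IV. Each role had 2 calls, all lower in PRMT1 KD. Over all genes tested, 47.4% were fitted below 0, 12.3% had all PRMT1 KD libraries below control and 0.986% were called lower. The roles also differed in level, with a median of 70.3 FPKM for subunits and 8.996 FPKM for factors, and in depth, with medians of 13412 and 3411 reads over 6 libraries. Median transcript length was 670.5 bases for subunits and 1171 bases for factors. Log2 fold change and transcript length had a Spearman correlation of 0.35 over the 54 members and 0.12 over all 13574 genes with a GC value. The part of length in the difference between roles was not tested. By library, the subunits' median deviation from the control mean was 0.02, 0.02 and -0.05 in control and -0.17, -0.11 and -0.07 in PRMT1 KD on the log2 scale. That of the factors was 0.03, 0.03 and -0.05 in control and -0.05, -0.05 and -0.06 in PRMT1 KD. In both roles control replicate 3 stood nearest to the PRMT1 KD libraries.

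**Figure D4:**
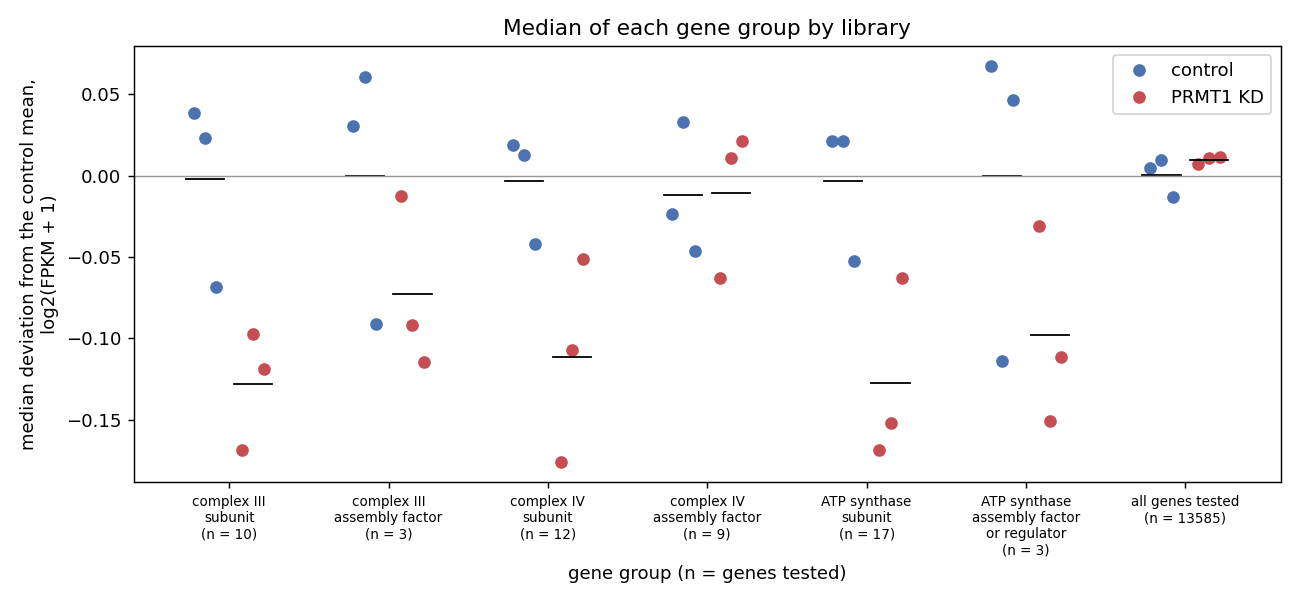
Median deviation from the control mean of log2(FPKM + 1) (y axis) for the 6 gene groups and all genes tested (x axis, n = genes), 1 point per library, black lines for the group means. In the 3 subunit groups every PRMT1 KD point lies below every control point, in the 3 groups of factors the points overlap, and for all genes tested both groups stay near 0.

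Partners outside the nuclear members were taken from a fixed list of 39 genes in the table, of which 36 were tested. None was called, and 27 (75%) were fitted below 0 (median -0.09), against 47.4% of all genes tested. At an unadjusted p under 0.05, 9 were lower and 1 higher, against 9.47% and 10.1% of all genes. The mitochondrially encoded catalytic subunit MT-CO1 stood at 14022, 14245 and 13931 FPKM in control and at 12639, 14235 and 14485 FPKM in PRMT1 KD (adjusted p = 0.842, limma). MT-CO2 was at 6403, 6819 and 6850.2 FPKM in control and 5620.4, 6201 and 6763 FPKM in PRMT1 KD, overlapping. MT-CO3 was at 7594.5, 7853 and 7811 FPKM in control and 6545, 7374 and 7421 FPKM in PRMT1 KD (adjusted p = 0.337, limma). The only mitochondrially encoded gene of complex III, MT-CYB, was at 1161, 1118 and 1009.7 FPKM in control and 925, 942 and 958.5 FPKM in PRMT1 KD (log2 fold change -0.22 ± 0.06, adjusted p = 0.117, limma). Of the membrane part of ATP synthase, MT-ATP6 was at 3705.5, 3740.0 and 3586 FPKM in control and 3282.5, 3371 and 3183 FPKM in PRMT1 KD (log2 fold change -0.17 ± 0.05, adjusted p = 0.125, limma). MT-ATP8, which overlaps MT-ATP6 in the genome, was at 103, 104.5 and 109 FPKM in control and 99.2, 112 and 107 FPKM in PRMT1 KD.

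Complex I is the entry point for electrons from NADH. Of its 34 nuclear subunit genes tested, 28 (82.4%) were fitted below 0 (median -0.09), against 47.4% of all genes tested. All PRMT1 KD libraries lay below control in 12 of them (35.3%), against 12.3% of all genes. The 1 gene called was NDUFB2, an accessory subunit, with a log2 fold change of -0.34 ± 0.06 (adjusted p = 0.0399, limma). Of all genes tested, 0.986% were called lower. The share of reads on the mitochondrial chromosome was 6.13%, 6.15% and 6.23% in control and 5.39%, 5.83% and 5.90% in PRMT1 KD. No difference between complex I and the members was tested.

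The fold changes varied with base composition. Over the 54 members, the log2 fold change and the GC content of the gene's transcripts had a Spearman correlation of -0.47, and over all 13574 genes with a GC value it was -0.26. The correlation over the members is a description of genes that share the 6 libraries. The called members had a GC content of 50.3% to 54.7%, against a median of 48.0% for the members tested. The deviation of single libraries from the mean of all 6 correlated with GC content over all genes by 0.32, 0.38 and -0.22 in control and by 0.16, 0.01 and -0.52 in PRMT1 KD, so that both libraries numbered 3 stood apart. With each library's curve against GC content subtracted, an alternative chosen after seeing the data, the members' median was -0.11, and 12 members were called lower and none higher, among 478 genes lower and 500 higher. All 4 members called before were among the 12. Without both libraries numbered 3, also chosen after seeing the data, the median was -0.14 and none of the members was called, among 25 calls over all genes in limma. The part of base composition in the single values was not tested further.

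**Figure D5:**
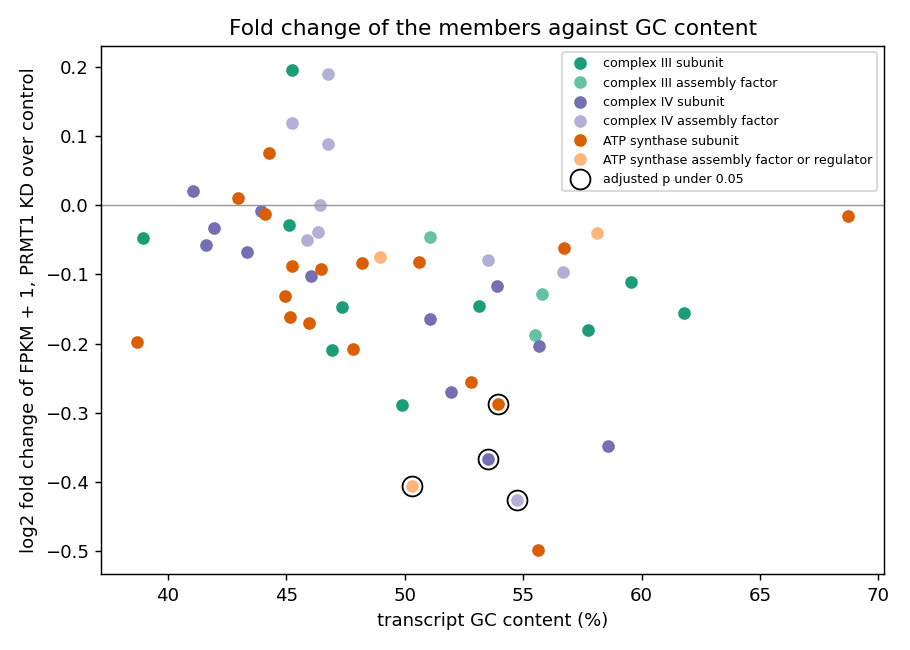
Log2 fold change of FPKM + 1 (y axis, PRMT1 KD over control) against the GC content of the gene's transcripts (x axis, %) for the 54 members tested, coloured by complex and role, with circles around the 4 called genes. The 7 members fitted above 0 all lie to the left of the 4 called genes, whose GC content is 50.3% to 54.7%.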

How the data were processed

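RNA sequencing of MM.1S cells was analysed in 3 control and 3 PRMT1 KD libraries, with groups and replicate numbers from the sample labels. For each gene the deposited table, made by the authors, gives 1 FPKM value a library beside its coordinates and length. The submitters' processing notes name featureCounts 1.5.0-p3 and hg38, and all 58735 gene identifiers matched GENCODE 29 with the same coordinates. The aligner and the strand setting of the counting are not given in the sources used here. FPKM multiplied by gene length gave whole reads (within 0.01) for 100% of values, and each library had been scaled by its median-of-ratios size factor, so an equal total change of mRNA would not be seen. A gene's length is the union of all its exons, which bears on levels compared between genes.

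Genes with a mean of at least 1 FPKM were kept and compared as log2(FPKM + 1). The fit used limma 3.58.1 under R 4.3.3, its moderated two-sided test let the variance follow the mean level, and p-values were adjusted by Benjamini-Hochberg over all genes kept. A fold change on this scale understates the change of low genes. Genes with an adjusted p under 0.05 were called. Single values were compared by an exact two-sided permutation test. Intervals are SE of the fit or SD over libraries and cover the spread of these libraries only. The fit was tested on simulated data. Values in every library are given for the called members, the lowest and highest fold change and the highest level in each of 6 groups of complex and role, isoform pairs, catalytic members and the mitochondrially encoded partners. Members, groups and lists were chosen with earlier results of these data known. The study's m6A sequencing was not analysed here, and protein sequences were not used.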

Additional observations from a re-analysis of the deposited data

How the results depend on the processing

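The 4 called members were lower under every alternative that could give a value, and PRMT1 kept its call in all 19. Against 4 members called lower, 0 were called with no filter on low values, with no mean-variance trend, with an ordinary linear model per gene and without both libraries numbered 3, 9 with limma voom on reads worked back, 12 with GC content corrected, 11 with GC content and transcript length corrected, and 20 at an unadjusted p under 0.05, where 3 were higher. With single libraries left out, 0 to 1 were called. Against 279 genes called, the counts were 35 with no filter, 473 with a mean of at least 5 FPKM, 43 with no trend, 12 with the ordinary linear model, 927 with voom, 978 and 942 with the corrections for GC content without and with length, 25 without both libraries numbered 3, 13 to 94 with single libraries left out and 2655 at an unadjusted p under 0.05. The corrections for GC content and the omission of both libraries numbered 3 were chosen after seeing the data. The cause of these changes was not tested. The members' median log2 fold change was -0.14 without both libraries numbered 3 and otherwise -0.12 to -0.08, with -0.12 to -0.09 when single libraries were left out. That of the ATP synthase subunits was -0.18 without both libraries numbered 3, and that of the ATP synthase factors -0.41 with a mean of at least 5 FPKM, where fewer genes are tested. That of the complex IV assembly factors ranged from -0.06 to 0.02, with the value above 0 coming without PRMT1 KD replicate 1.

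Same-numbered libraries deviated from their group means with correlations of 0.020, 0.063 and 0.101, not all over 0.1, so the numbers were not taken as pairs, although each library correlated best with its own number. With the replicate block, 4 members and 204 genes were called, and no member's call changed. Genes of few reads, such as ATP5ME with 630 over 6 libraries, limit what depth can show.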

Other observations

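Some neighbours of the 3 complexes that were not described above stood out by their values, with none called in limma. TACO1, which activates translation of COX1, was at 27.0, 28.3 and 25.5 FPKM in control and at 23.2, 21.2 and 20.6 FPKM in PRMT1 KD (log2 fold change -0.30 ± 0.06, adjusted p = 0.0657, limma). COA5, an assembly factor of complex IV, had -0.26 ± 0.06 (adjusted p = 0.0786), and SMIM4, which takes part in complex III assembly, had -0.34 ± 0.08 (adjusted p = 0.0837). The mobile carrier CYCS and HCCS, which attaches heme to it, had log2 fold changes of -0.15 ± 0.06 and -0.24 ± 0.06. In these 5 genes all PRMT1 KD libraries lay below all control libraries. That held for 10 of the 36 genes tested on the fixed list (27.8%), against 12.3% of all genes. In 2 of the 36 all lay above, against 13.6% of all genes. The 5 genes were picked from the list for their values, and 9 of the 36 were fitted above 0. OXA1L, listed with complex IV, was at 51.8, 54.1 and 51.1 FPKM in control and 54.5, 55.1 and 57.1 FPKM in PRMT1 KD. It lay above control without overlap (log2 fold change 0.08 ± 0.04, adjusted p = 0.336, limma). LRPPRC, listed likewise, had 0.14 ± 0.08 (adjusted p = 0.355, limma), with the groups overlapping.

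The carriers that bring ADP and phosphate to ATP synthase were on the other side of 0. SLC25A5, the main ADP/ATP carrier by level, was at 220.4, 217 and 211 FPKM in control and at 229, 246 and 236 FPKM in PRMT1 KD (log2 fold change 0.13 ± 0.04, adjusted p = 0.157, limma). SLC25A6 had 0.05 ± 0.06 and the phosphate carrier SLC25A3 had 0.04 ± 0.04, both overlapping between groups. SLC25A4, the heart and muscle form, was under 0.4 FPKM in every library.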
